A study of Drosophila melanogaster with 32 samples.

Results

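The genes described are 10 members of the PIWI-interacting RNA (piRNA) pathway, piwi, aub, AGO3, zuc, armi, vret, spn-E, krimp, qin and rhi. They were taken by gene symbol: each probe set that the array's annotation assigned to 1 gene, and to a gene of that list, was a member. All 10 genes had such a probe set, and qin had a pair, so 11 of the 18769 probe sets tested and 10 of the 11982 genes named on the array are described. The rule used no measured value, but the list was drawn up with earlier results of these data known.

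The samples were whole mated adult females of Drosophila melanogaster from 8 laboratory populations derived from 1 base stock, LHM. In the 4 monogamous populations (Mono1 to Mono4) mating was limited to 1 per generation, and the 4 promiscuous populations (Prom1 to Prom4) stayed under the stock's standard mating protocol, for 46 generations in both cases. Each female population was then crossed with its own males and with males from the opposite regime's population of the same number, and mated females were frozen after 6 h. The 4 groups were therefore monogamous females with monogamous males, monogamous females with promiscuous males, promiscuous females with monogamous males and promiscuous females with promiscuous males, each with 4 populations and 8 arrays, 1 array per cross in each of 2 batches. All populations share the base stock, no group was left unmated, and the labels give neither the age of the females nor the number pooled per array. RMA, the method used, puts the probe intensities of all arrays on 1 distribution before it summarizes them by probe set. Values are log2 intensities after RMA, so a difference of 1 is a doubling. They can be compared between samples within a probe set but not between probe sets. Array medians lay between 5.41 and 5.50, and the correlation of any pair of arrays lay between 0.992 and 0.998.

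piRNAs are small RNAs that silence transposable elements in the germline. Their precursors are transcribed from genomic clusters, cut in the cytoplasm at perinuclear granules (nuage) and at mitochondria, and loaded into the PIWI-clade Argonaute proteins Piwi, Aub and AGO3. Aub and AGO3 amplify the pool by cutting transposon and cluster transcripts in turn, the ping-pong cycle, while Piwi carries its piRNA into the nucleus and represses transcription. In adult females these genes are known mainly from the ovary. In whole flies, fewer ovarian germline cells and less RNA of a gene per cell cannot be told apart. Ovarian genes were strongly measured in all arrays: the mean level of 22 probe sets for other germline genes (nos, osk, orb and the like) lay between 9.82 and 10.06 and that of 7 chorion probe sets, which mark late follicle cells, between 9.97 and 12.59. The mean of 18 probe sets for testis genes lay between 4.09 and 4.24 in every array, near the low end of the scale.

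No member passed the adjusted threshold of 0.05 for female or male regime in fits on 8 population means or 8 responses. In tests among populations, with the 32 arrays as samples, 5 of the 11 member probe sets passed among the monogamous populations, where 13.5% of all probe sets did, and 5 among the promiscuous populations, where 9.85% did. They were the probe sets of the same 5 genes in both: piwi, aub, spn-E, qin and rhi. Between batches, in a fit on 16 differences within crosses, 6 of the 11 passed, against 20.2% of all probe sets. These shares over all probe sets count dim ones too, and were higher without the dimmest 40% of probe sets. Because these fits differ in what counts as a sample, their numbers of calls are not set against each other. With the 32 arrays as samples, piwi and the brighter qin probe set also passed for female regime. The regimes were applied to the 8 populations, however, and not to single arrays. Both probe sets also differed among populations of the same regime, so the fit on arrays can understate their SE. In the fit on 8 population means their limma adjusted p was 0.586 and 0.592.

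**Figure D1:**
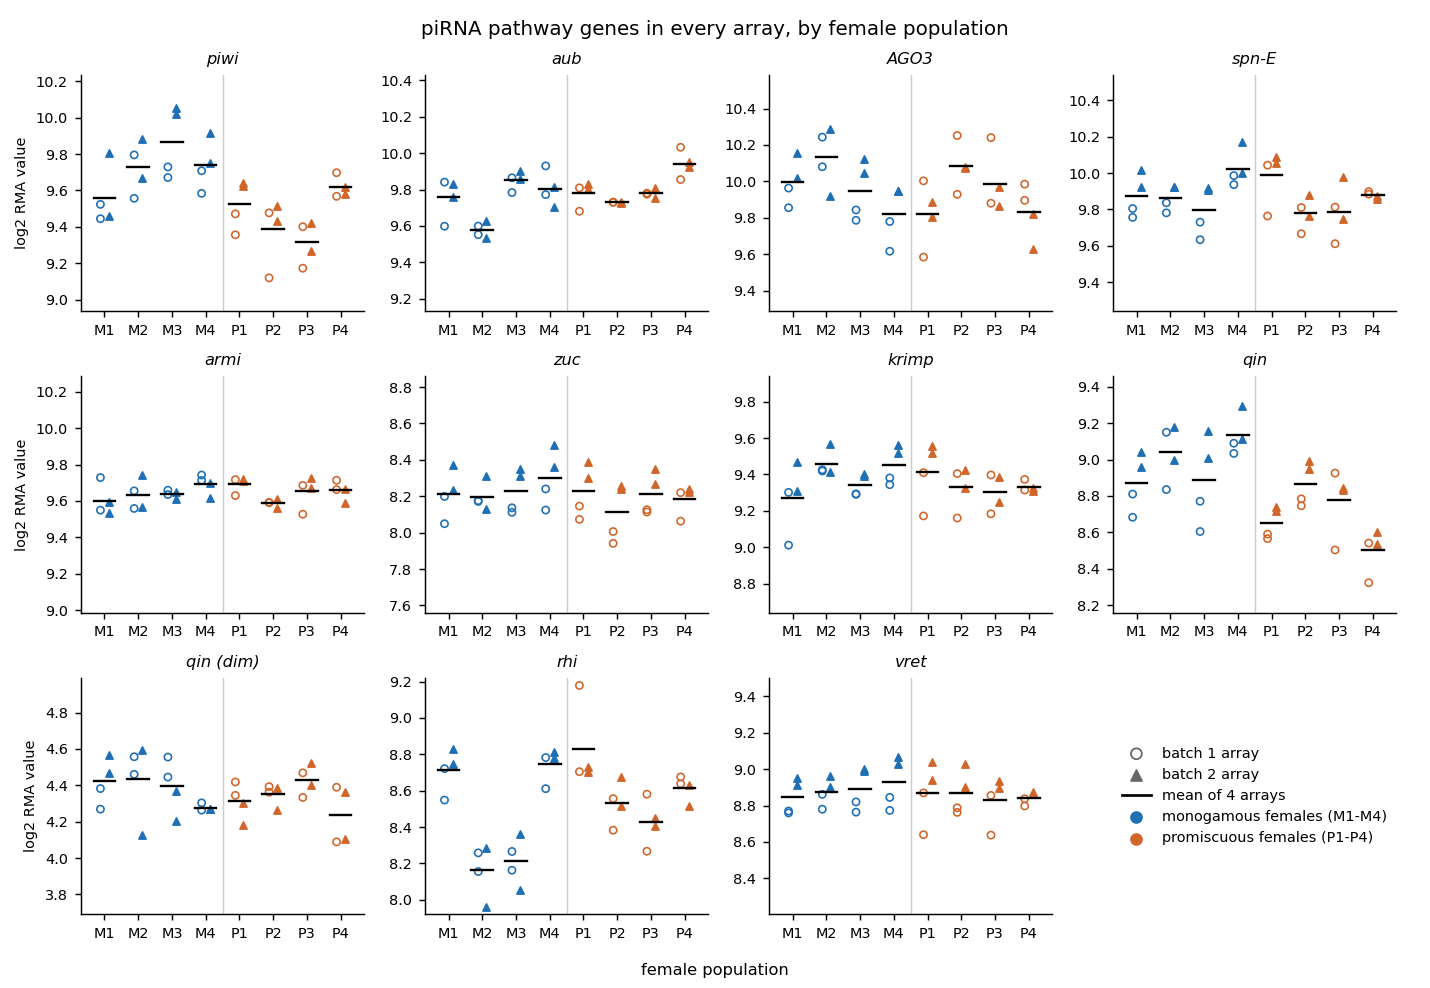
The log2 RMA value of each member in all 32 arrays, by female population (M1 to M4 monogamous, P1 to P4 promiscuous); open circles are batch 1, filled triangles batch 2, and bars are means of 4 arrays. Each panel spans 1.3 log2 units. The 8 rhi arrays of M2 and M3 lie below the 8 of M1 and M4, and piwi and the brighter qin probe set are lower in most promiscuous than monogamous arrays.

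The PIWI-clade proteins come first. piwi, the nuclear family member, averaged 9.56 in Mono1, 9.73 in Mono2, 9.87 in Mono3 and 9.74 in Mono4. In the promiscuous populations it averaged 9.52 in Prom1, 9.39 in Prom2, 9.32 in Prom3 and 9.62 in Prom4. Each promiscuous population was below the monogamous population of its number, but the sets overlap because Prom4 lies above Mono1. The means of 9.72 ± 0.13 (SD, n = 4) and 9.46 ± 0.14 (n = 4) differ by -0.26 (SE 0.08, 95% confidence interval -0.44 to -0.08), a ratio of 0.833. The difference did not pass, with a limma adjusted p = 0.586 and an unadjusted limma p of 0.00923. It was -0.22 in batch 1 alone and -0.31 in batch 2 alone. By group, piwi averaged 9.69 ± 0.15 in monogamous females with monogamous males, 9.76 ± 0.11 in monogamous females with promiscuous males, 9.42 ± 0.19 in promiscuous females with monogamous males and 9.50 ± 0.09 in promiscuous females with promiscuous males (n = 4 each). Within either female regime, these neighbours in order differ by less than the larger of their SDs.

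aub, the cytoplasmic slicer that binds mostly antisense piRNAs, showed no such order. Its population means were 9.76, 9.58, 9.85 and 9.81 in Mono1 to Mono4 and 9.78, 9.73, 9.78 and 9.94 in Prom1 to Prom4. The female regime difference was 0.06 (SE 0.07, interval -0.09 to 0.21, limma adjusted p = 0.909). Mono2 was the lowest of the 8 populations and Prom4 the highest. AGO3, the ping-pong partner of Aub, averaged 9.998, 10.13, 9.95 and 9.82 in Mono1 to Mono4 and 9.82, 10.08, 9.99 and 9.83 in Prom1 to Prom4. The regimes differed by -0.05 (SE 0.08, interval -0.22 to 0.13, limma adjusted p = 0.948) and their population means overlap widely.

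Of the genes for processing of precursors, zuc encodes the mitochondrial endonuclease that cuts precursors, armi an RNA helicase that feeds them to it, and vret a Tudor-domain protein needed for piRNA biogenesis. Over the 8 population means zuc lay between 8.11 and 8.30, armi between 9.59 and 9.69 and vret between 8.83 and 8.93. Monogamous and promiscuous populations averaged 8.23 ± 0.05 and 8.18 ± 0.05 for zuc, 9.64 ± 0.04 and 9.65 ± 0.04 for armi, and 8.89 ± 0.03 and 8.85 ± 0.02 for vret (SD, n = 4). Their female regime differences were -0.05 (interval -0.15 to 0.05), 0.01 (-0.07 to 0.09) and -0.03 (-0.11 to 0.05), with limma adjusted p = 0.870, 0.989 and 0.903. None of these intervals reaches -0.26, the difference of piwi.

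Among the nuage and ping-pong genes, qin stood out. qin encodes a protein with RING and Tudor domains that keeps ping-pong between Aub and AGO3. Its brighter probe set averaged 8.87, 9.04, 8.89 and 9.13 in Mono1 to Mono4, against 8.65, 8.87, 8.78 and 8.50 in Prom1 to Prom4. The population means of the regimes do not overlap, though the highest promiscuous and the lowest monogamous mean are almost level. Of all probe sets tested, 4.08% have population means that do not overlap between regimes, and among the members it is this 1 of 11. Means of 8.98 ± 0.13 and 8.70 ± 0.16 (SD, n = 4) gave a difference of -0.28 (SE 0.09, interval -0.48 to -0.09), a ratio of 0.822. This did not pass, with a limma adjusted p = 0.592 and an unadjusted limma p of 0.00994. It was -0.25 in batch 1 alone and -0.32 in batch 2 alone.

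The second probe set of qin lay between 4.09 and 4.59 over the 32 arrays, near the low end of the scale where RMA compresses differences, and no detection calls were used. It differed by -0.05 (SE 0.05, interval -0.17 to 0.07, limma adjusted p = 0.907) between female regimes. The probe sets of qin thus differ in the size of the regime difference.

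spn-E encodes a nuage helicase with a Tudor domain, and krimp a Tudor-domain protein that links Aub to AGO3. spn-E averaged 9.87, 9.87, 9.80 and 10.02 in Mono1 to Mono4 and 9.99, 9.78, 9.79 and 9.88 in Prom1 to Prom4. krimp averaged 9.27, 9.46, 9.34 and 9.45 in the monogamous and 9.41, 9.33, 9.30 and 9.33 in the promiscuous populations. The regimes overlap for both genes, with differences of -0.03 (interval -0.17 to 0.11) for spn-E and -0.04 (-0.15 to 0.08) for krimp, and limma adjusted p = 0.958 and 0.932.

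rhi encodes the paralog of heterochromatin protein HP1 that marks dual-strand clusters and allows their transcription. Its populations spread the most of all members, from 8.16 in Mono2 to 8.83 in Prom1. The regimes averaged 8.46 ± 0.31 and 8.60 ± 0.17 (SD, n = 4), a difference of 0.14 (SE 0.15, interval -0.19 to 0.48, limma adjusted p = 0.901). The SD among the monogamous populations is the largest of any member.

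Over the members together, 8 of 11 female regime differences were below 0 and their median was -0.04, while 52.9% of all tested probe sets were above 0 with a median of 0.00409. In this comparison 0% of all probe sets were called at the adjusted threshold and 7.11% had an unadjusted p under 0.05, against 2 of 11 members, piwi and qin. Of the germline genes outside the pathway, 20 of 22 probe sets were also below 0, with a median of -0.05. None of the 22 was called by limma and 2 had an unadjusted p under 0.05. With each array's mean of that germline list subtracted, the members' median was 0.02, piwi differed by -0.20 (limma adjusted p = 0.208) and qin by -0.22 (limma adjusted p = 0.213). Of the vitelline membrane genes, which mark follicle cells, 6 of 6 were above 0 with a median of 0.26. Of the chorion probe sets, which mark late follicle cells, only 3 of 7 were above 0, with a median of -0.04. For early ovarian soma 3 of 5 were above 0 (median 0.00764), and for fat body and yolk 6 of 7 (0.03). The part of these tissues in the members' values was not tested. With the 32 arrays rather than the 8 populations as samples, and population as a random block, piwi and qin passed with limma adjusted p = 0.0314 and 0.0255, among 142 probe sets in all. That fit estimated a correlation of 0.14 between arrays of 1 population over all probe sets and applied it to each of them. piwi and qin were themselves called among populations of 1 regime, so for them this fit can understate the SE.

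**Figure D2:**
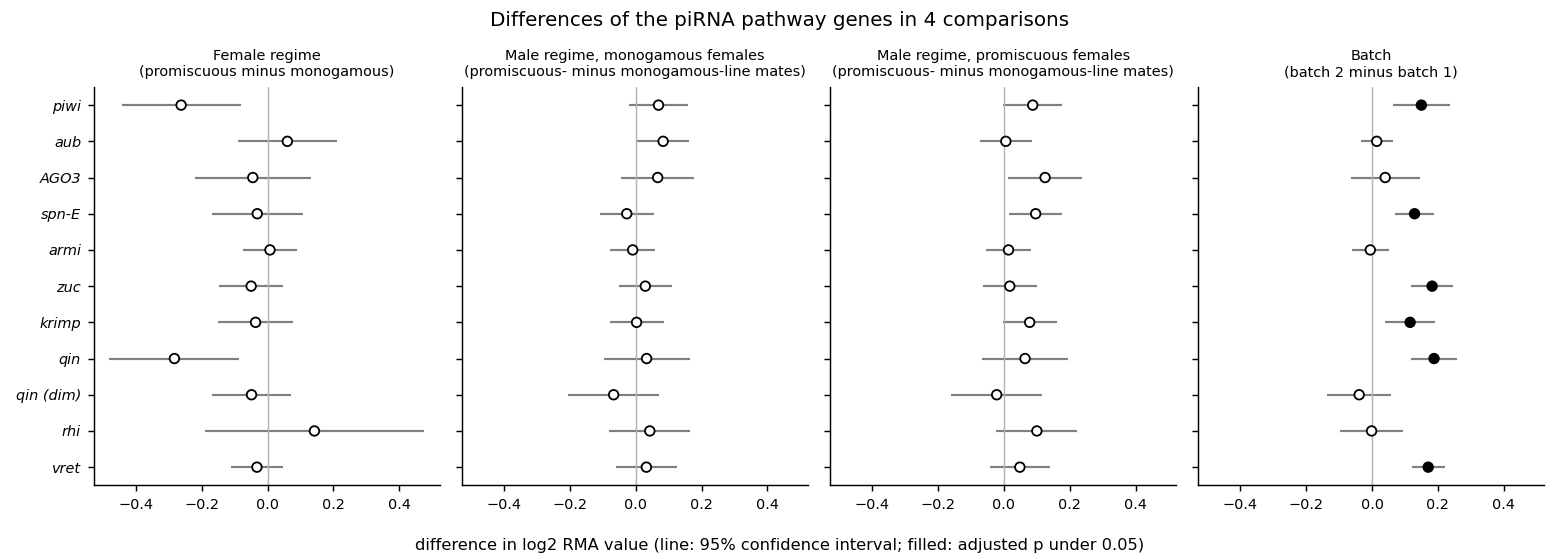
Differences in log2 RMA value for each member probe set, as points with 95% confidence intervals, for female regime, male regime in each kind of female, and batch; filled points have a limma adjusted p under 0.05. Only the batch panel holds filled points, those of 6 probe sets from zuc, vret, qin, spn-E, piwi and krimp.

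The second comparison asked whether the regime of the mate mattered. A response is the level in females of 1 population mated to promiscuous males minus that after mating to monogamous males. Over the 8 female populations 10 of the 11 members had a mean response above 0, with a median of 0.04, while 48.7% of all probe sets were above 0 with a median of -0.00156. None passed: 0% of all probe sets were called, 11% had an unadjusted p under 0.05, and 2 of the 11 members did.

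AGO3 had the highest mean response of the members. It was 0.01, 0.10, 0.07 and 0.08 in Mono1 to Mono4 and 0.25, 0.16, 0.23 and -0.14 in Prom1 to Prom4, above 0 in 7 of 8 populations. The mean was 0.10 (SE 0.04, limma adjusted p = 0.394). The AGO3 responses differed between batches. In Prom1 to Prom4 they were 0.42, 0.32, 0.36 and -0.09 in batch 1 alone. In batch 2 alone they were 0.08, -0.00358, 0.10 and -0.20. In Mono1 to Mono4 they were -0.11, -0.16, 0.06 and 0.16 in batch 1 alone. In batch 2 alone these were 0.14, 0.37, 0.08 and 0.00146. piwi responded by 0.13, -0.01, 0.01 and 0.14 in Mono1 to Mono4 and by 0.07, 0.14, 0.19 and -0.05 in Prom1 to Prom4, above 0 in 6 of 8. Its mean was 0.08 (SE 0.03, limma adjusted p = 0.393). The other 9 probe sets lay between -0.04 for the dim qin probe set and 0.07 for rhi, with limma adjusted p between 0.541 for rhi and 0.979 for armi.

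Of the germline list, 19 of 22 probe sets were above 0 with a median of 0.04, none was called by limma and 6 had an unadjusted p under 0.05. With that list's mean subtracted the members' median was -0.00158. In the same crosses 6 of 6 gut probe sets were below 0, with a median of -0.07. Chorion probe sets were above 0 in 3 of 7 cases (median -0.20), vitelline membrane in 5 of 6 (0.04) and muscle in 6 of 9 (0.05). Early ovarian soma was above 0 in 2 of 5 (-0.01), fat body and yolk in 4 of 7 (0.000944) and testis in 7 of 18 (-0.02). The part of these tissues in the members' values was not tested.

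By group, in the order monogamous females with monogamous males, monogamous females with promiscuous males, promiscuous females with monogamous males and promiscuous females with promiscuous males, AGO3 averaged 9.94 ± 0.13, 10.01 ± 0.13, 9.87 ± 0.13 and 9.99 ± 0.18 (SD, n = 4 each, as in the values that follow). aub averaged 9.71 ± 0.10, 9.79 ± 0.15, 9.81 ± 0.12 and 9.81 ± 0.07. In both genes the group means overlap within their SDs. In the same order spn-E averaged 9.90 ± 0.10, 9.88 ± 0.09, 9.81 ± 0.10 and 9.91 ± 0.12, so its lowest mean was that of promiscuous females with monogamous males. The brighter qin probe set averaged 8.97 ± 0.18, 8.9997 ± 0.13, 8.67 ± 0.17 and 8.73 ± 0.17, with both groups of promiscuous females below both groups of monogamous females. rhi averaged 8.44 ± 0.38, 8.48 ± 0.25, 8.55 ± 0.16 and 8.65 ± 0.21, and its groups overlap throughout. Group means of zuc lay between 8.18 and 8.25, of armi between 9.64 and 9.66, of krimp between 9.31 and 9.38, of vret between 8.83 and 8.90 and of the dim qin probe set between 4.32 and 4.42.

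Split by female regime, the members' median response was 0.03 in monogamous females and 0.06 in promiscuous females. In monogamous females aub had the only unadjusted p under 0.05 among the members, at 0.08 (SE 0.04, limma adjusted p = 0.570), where 0% of all probe sets were called and 8.46% had such a p. In promiscuous females AGO3 at 0.12 (SE 0.05, limma adjusted p = 0.457) and spn-E at 0.10 (SE 0.04, limma adjusted p = 0.427) did, against 10.2% of all probe sets, and 0.00533% of all probe sets passed the adjusted threshold. The promiscuous median rests on 1 batch: it was 0.14 in batch 1 alone and -0.00288 in batch 2 alone.

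The difference between those responses, promiscuous minus monogamous females, is the interaction of the regimes. Among the members 9 of 11 were above 0 with a median of 0.03, and spn-E alone had an unadjusted p under 0.05, at 0.12 (SE 0.05, interval 0.01 to 0.24, limma adjusted p = 0.612). Over all probe sets 7.89% had such a p and 0.00533% were called. spn-E responded by 0.02, -0.03, -0.04 and -0.06 in Mono1 to Mono4 and by 0.16, 0.01, 0.22 and -0.00146 in Prom1 to Prom4. The responses of the regimes overlap at Prom2 and Prom4. The members' median interaction was 0.15 in batch 1 alone and -0.06 in batch 2 alone.

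Populations of 1 regime were compared by a moderated F test over the 32 arrays, with batch and male regime in the fit. It asks whether populations kept apart for 46 generations under the same mating system differ. The arrays of a population, which differ in batch or in mate, are its repeat samples. Mates came only from populations of the female's own number, so female population and mate population cannot be told apart in this test. Of all probe sets 13.5% were called among the monogamous and 9.85% among the promiscuous populations. Of the members 5 of 11 were called in each. Without the dimmest 40% of probe sets, 2725 and 2006 of the fewer probe sets left were called, a higher share in both regimes. The members' median range, the highest minus the lowest fitted population level, was 0.23 among monogamous and 0.21 among promiscuous populations. All probe sets, dim ones included, had medians of 0.15 and 0.14.

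**Figure D3:**
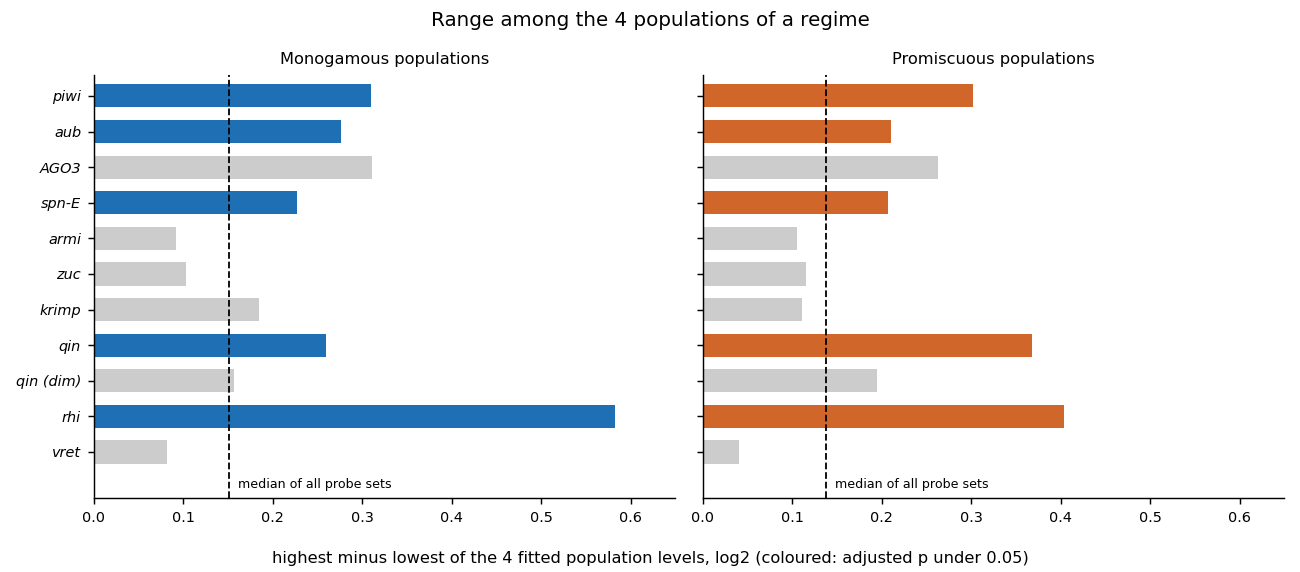
The range of the fitted levels of the 4 populations of each regime, in log2 units, for each member probe set; coloured bars have a limma adjusted p under 0.05 in the F test and the dashed line is the median of all 18769 probe sets. piwi, aub, spn-E, qin and rhi are coloured in both panels, and rhi has the longest bar in both.

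rhi differed most. Its 4 arrays were 8.72, 8.55, 8.75 and 8.83 in Mono1, 8.26, 8.16, 7.96 and 8.28 in Mono2, 8.16, 8.27, 8.05 and 8.36 in Mono3, and 8.78, 8.61, 8.81 and 8.78 in Mono4. Every array of Mono2 and Mono3 was below every array of Mono1 and Mono4. The range was 0.58, so the highest level was 49.7% above the lowest (F = 23.1, limma adjusted p = 6.95e-06), and it was 0.49 in batch 1 alone and 0.68 in batch 2 alone. rhi passed in this test under each alternative tried, with limma adjusted p up to 0.00929. Among the promiscuous populations rhi ranged over 0.40, from 8.43 in Prom3 to 8.83 in Prom1 (F = 6.88, limma adjusted p = 0.0187). There 1 array of Prom1 lay at 9.18 against 8.70 to 8.73 for the other 3, and without Prom1 the range was 0.19 (limma adjusted p = 0.376). Without Prom3 the range was 0.30 (limma adjusted p = 0.140), and in batch 2 alone it was 0.29 (limma adjusted p = 0.357).

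aub was low in Mono2, with arrays at 9.55, 9.60, 9.62 and 9.53, while the other 3 monogamous populations spanned 9.60 to 9.93. The range was 0.28 (F = 13.1, limma adjusted p = 4.47e-04), and without Mono2 it was 0.10 (limma adjusted p = 0.4002). Among the promiscuous populations aub was high in Prom4, with arrays between 9.86 and 10.03, against 9.68 to 9.83 in the others. The range of 0.21 (limma adjusted p = 0.0120) was 0.05 without Prom4 (limma adjusted p = 0.755), and without Prom2 the adjusted p was 0.0505 by limma. In batch 1 alone aub did not pass among the monogamous populations (limma adjusted p = 0.127), and it did not pass among the promiscuous populations in either batch alone (0.365 and 0.255).

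qin ranged over 0.37 among the promiscuous populations, from Prom4 at 8.50 to Prom2 at 8.87 (limma adjusted p = 0.00817), and over 0.26 among the monogamous populations (limma adjusted p = 0.0471). piwi ranged over 0.31 among the monogamous populations, with Mono3 highest and Mono1 lowest (limma adjusted p = 0.0431), and over 0.30 among the promiscuous populations, with Prom4 highest and Prom3 lowest (limma adjusted p = 0.0344). spn-E was highest in Mono4 and in Prom1, with ranges of 0.23 (limma adjusted p = 0.0297) and 0.21 (limma adjusted p = 0.0338). In either batch alone piwi, spn-E and qin did not pass, with limma adjusted p from 0.0637 to 0.506. The calls of spn-E ended without Mono3 or Mono4, with ranges of 0.16 and 0.08 (limma adjusted p = 0.110 and 0.600). They also ended without Prom1, where the range was 0.10 (limma adjusted p = 0.511), and without Prom2 or Prom3, where it was still 0.20 and 0.21 (limma adjusted p = 0.0529 and 0.0679).

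The piwi calls ended without Mono1 or Mono3, with ranges of 0.14 and 0.18 (limma adjusted p = 0.391 and 0.227), and without Prom3 or Prom4, with ranges of 0.23 and 0.21 (limma adjusted p = 0.213 and 0.201). The qin call among the monogamous populations ended without Mono1 or Mono3, where its range was still 0.25 and 0.26 (limma adjusted p = 0.120 and 0.0578), and without Mono4, where it was 0.17 (limma adjusted p = 0.307). Among the promiscuous populations it ended without Prom2 or Prom4, with ranges of 0.28 and 0.21 (limma adjusted p = 0.0894 and 0.245). Without the intensity trend, limma adjusted p was 0.0624 and 0.0512 for piwi, 0.0617 for qin among the monogamous and 0.0554 for spn-E among the promiscuous populations. AGO3 had ranges of 0.31 and 0.26, against 0.31 and 0.30 for piwi. Its moderated residual SD of arrays in the fit was larger (0.14 against 0.11), and AGO3 was not called (limma adjusted p = 0.148 and 0.190). krimp, zuc, armi, vret and the dim qin probe set ranged over 0.04 to 0.19 and were not called, with limma adjusted p between 0.143 and 0.921.

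Each cross had 1 array in each batch, so a batch effect and a difference between repeat samples cannot be told apart. The batch difference was taken within the 16 crosses. Of all probe sets 20.2% were called, 10.7% higher in batch 2. Without the dimmest 40% of probe sets, 3566 of the fewer probe sets left were called, a higher share. Of the members 6 of 11 were called and all 6 were higher in batch 2. vret rose in 16 of 16 crosses, from 8.79 ± 0.07 to 8.96 ± 0.06 (SD over 16 arrays), a difference of 0.17 (SE 0.02, limma adjusted p = 4.48e-05). zuc was higher in 15 of 16 crosses by a mean of 0.18 (SE 0.03, limma adjusted p = 2.92e-04), and the brighter qin probe set in 14 of 16 by 0.19 (SE 0.03, limma adjusted p = 5.46e-04). These shifts are larger than any female regime difference of the members apart from those of piwi and the brighter qin probe set.

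spn-E was higher in 13 of 16 crosses by 0.13 (SE 0.03, limma adjusted p = 0.00283), piwi in 12 of 16 by 0.15 (SE 0.04, limma adjusted p = 0.0130) and krimp in 11 of 16 by 0.12 (SE 0.04, limma adjusted p = 0.0277). The piwi call ended without the crosses of Mono3 females (limma adjusted p = 0.0521). The krimp call ended without those of Mono1, Mono3, Mono4 or Prom1 females, with limma adjusted p between 0.0516 and 0.0826, and with quantile normalization (0.0548). aub, AGO3, armi, rhi and the dim qin probe set differed by -0.04 to 0.04 between batches, with limma adjusted p between 0.607 and 0.986. The largest of the 3 PIWI-clade differences was therefore that of piwi, and rhi, the member with the widest spread among populations, had the smallest batch difference at -0.00151. The germline list had 8 probe sets called higher and 3 lower in batch 2, of 22. The mean level of the 9 muscle probe sets was lower in batch 2, at 10.01 against 10.13. That of the 6 vitelline membrane probe sets was higher, at 10.65 against 10.46. The part of these tissues in the members' values was not tested.

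A wider list adds further genes linked to the piRNA pathway, among them general factors such as CtBP, a transcriptional corepressor, and ctp, a dynein light chain. It holds 42 genes, of which 36 had a single-gene probe set, 40 probe sets in all. No probe set passed in a regime comparison. For female regime 26 of the 40 were below 0, with a median of -0.03. The lowest unadjusted p values were those of vls, a cofactor of the arginine methyltransferase that modifies PIWI proteins, at 0.19 (SE 0.05, limma adjusted p = 0.579), and of a probe set of tapas, a Tudor-domain nuage gene, at -0.23 (SE 0.07, limma adjusted p = 0.586). The other tapas probe set differed by only 0.02 and did not share that decrease.

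For the mean male response 35 of the 40 were above 0, with a median of 0.04. In all, 9 of 9 probe sets for Yb body and mitochondrial processing genes, 9 of 10 for nuage and ping-pong, 8 of 9 for nuclear silencing and 9 of 12 for cluster transcription and export were above 0. Trf2, a TBP-related transcription factor, at 0.09 (SE 0.02, limma adjusted p = 0.320) and Gasz, a mitochondrial scaffold of piRNA processing, at 0.10 (SE 0.03, limma adjusted p = 0.354) led the list. In monogamous females 25 of 40 were above 0 with a median of 0.01, led by kipf, a zinc-finger protein that brings Rhino to clusters, at 0.12 (limma adjusted p = 0.483) and tud at 0.06 (0.594). In promiscuous females 36 of 40 were above 0 with a median of 0.06, led by Trf2 at 0.17 (0.221) and a probe set of Su(var)2-10, a SUMO ligase, at 0.15 (0.276). The interaction was above 0 for 34 of 40, with a median of 0.05, led by Trf2 and BoYb, each at 0.15, with limma adjusted p up to 0.553. These comparisons share arrays with each other.

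The small RNA genes of the siRNA and miRNA pathways, 9 probe sets, were above 0 in 8 cases for the mean male response with a median of 0.04, and none passed. For female regime 4 of 9 were above 0, with a median of -0.00193. Positive responses to the mate's regime were thus counted in the members, in the wider list, in the siRNA and miRNA genes and in the germline list alike.

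Among populations the wider list had 11 of 40 probe sets (27.5%) called in the monogamous and 7 of 40 (17.5%) in the promiscuous regime, against 13.5% and 9.85% of all probe sets. Those shares of all probe sets count dim ones too. Without the dimmest 40% of probe sets, 2725 and 2006 of the fewer left were called, a higher share in both regimes and near the wider list's own. Whether the wider list exceeds brighter probe sets was not tested, so its shares are not read as an excess. moon, a germline paralog of the basal factor TFIIA-L that starts transcription at clusters marked by Rhino, ranged over 0.62 (limma adjusted p = 5.43e-07) among the monogamous and 0.44 (4.77e-05) among the promiscuous populations. Hen1, the methyltransferase of piRNA 3′ ends, ranged over 0.63 (1.18e-06) and 0.47 (2.79e-04). cuff, a partner of Rhino, ranged over 0.35 (0.0187) and 0.35 (0.00955). The Tudor-domain gene SoYb and the nuage gene squ were also called in both regimes, with ranges from 0.19 to 0.37.

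Called among the monogamous populations alone were shu, kipf, tej, csul, nxf2 and papi, with ranges of 0.34, 0.38, 0.35, 0.24, 0.35 and 0.16 and limma adjusted p from 2.00e-05 to 0.0354. Called among the promiscuous populations alone were wde at 0.15 and Trf2 at 0.31 (limma adjusted p = 0.0220 and 0.0283). Whether the regimes differ in these ranges was not tested. Of the siRNA and miRNA genes none of 9 was called by limma in either regime, with 2 and 1 at an unadjusted p under 0.05, where 4854 and 4040 of the 18769 probe sets had one.

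By batch 12 of the 40 were called, 8 higher and 4 lower in batch 2, where 20.2% of all probe sets were called and 10.7% were called higher. Without the dimmest 40% of probe sets, 3566 of the fewer left were called, a higher share and near the wider list's own. fs(1)Yb, the Yb body gene of the ovarian soma, at 0.36 and moon at 0.24, cuff at 0.23, nxf2 at 0.20, Nbr at 0.17, Nxt1 at 0.13, mino at 0.08 and squ at 0.08 were higher, with limma adjusted p from 6.75e-05 to 0.0361. bel, a DEAD-box helicase, at -0.31, a probe set of ctp, a dynein light chain, at -0.22 and the probe sets of CtBP, a transcriptional corepressor, at -0.24 and -0.26 were lower, with limma adjusted p from 5.59e-07 to 1.09e-04. The other ctp probe set differed by 0.00236, so the probe sets of ctp disagree.

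**Figure D4:**
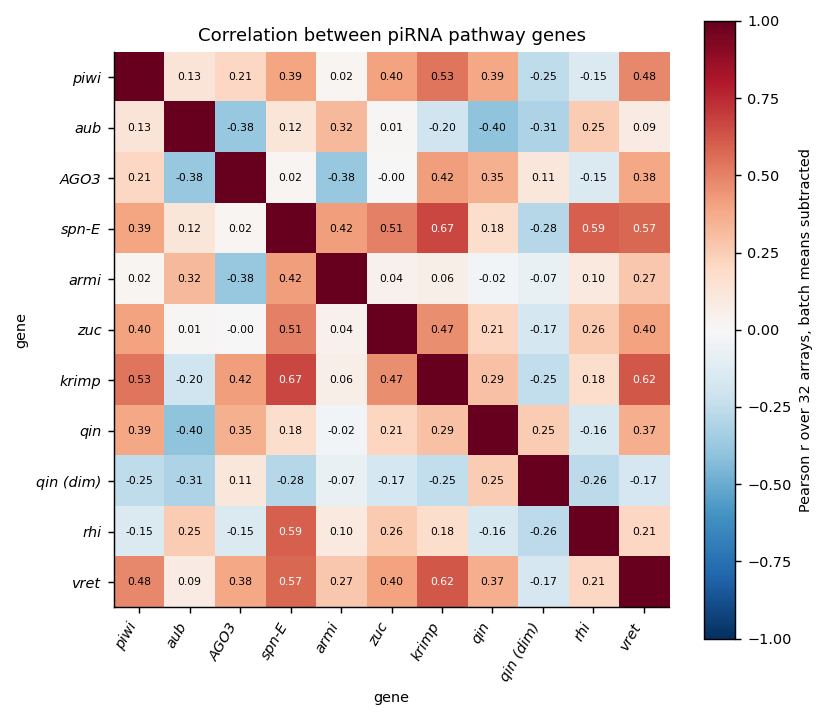
Pearson correlation between member probe sets over the 32 arrays, after the mean of each batch was subtracted; red is positive and blue negative. spn-E, krimp, vret, zuc and piwi form the mostly red cells, up to 0.67, while aub has negative cells with AGO3 and qin.

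The members did not vary as 1 block over the arrays. Over the 32 arrays, which share populations and were centred on batch means, the 45 pairs of the 10 brighter probe sets had a median r of 0.21, with 36 pairs above 0. The highest was 0.67 for spn-E with krimp and the lowest -0.40 for aub with qin. vret (0.75), piwi (0.72), krimp (0.69) and AGO3 (0.62) followed the mean of the germline list, whereas aub (-0.22), armi (-0.00137) and rhi (-0.02) did not. The mean of the members had r = 0.77 with the germline list and 0.69 with the wider piRNA list. It had r = 0.55 with the siRNA and miRNA list, 0.16 with the chorion list, -0.11 with the vitelline membrane list, -0.12 with the 5 probe sets of early ovarian soma and -0.30 with fat body and yolk. With gut it had r = -0.34, with muscle 0.09 and with testis -0.00612. These are descriptions of arrays that are not independent, and no test was made of them.

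The 8 genes whose probe sets followed the members' mean most closely over the 32 arrays were del (r = 0.89), dx (0.89), Phs (0.85), Spt (0.85), CG1492 (0.84), Cul6 (0.84), Irbp (0.83) and CG6425 (0.83). del encodes Deadlock, which joins Rhino and Cutoff at clusters and stands in the wider list. dx encodes deltex, a regulator of Notch signalling, and Irbp the Ku70 subunit of DNA repair. All 8 had a female regime difference below 0, from -0.04 to -0.13, and a mean male response above 0, from 0.05 to 0.13. Genes chosen for following the members' mean over these arrays share its direction by that choice, so these signs are no separate result.

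piwi and aub are near neighbours on chromosome 2L in the RefSeq gene table (Release 6), 3 places apart in gene order. Their correlation over the 32 arrays was 0.13, and the female regime differences were -0.26 and 0.06.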

How the data were processed

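The deposited table held log2 values of 18952 probe sets on 32 Affymetrix arrays, which the authors computed with RMA and affy (versions not given), per the submitters' processing notes. A shift common to most genes is removed by RMA and dim probe sets are compressed. No other normalization was applied. Of the probe sets 183 controls were left out, 13647 of the 18769 tested had 1 gene in the platform annotation, 402 had several and 4720 had none; 13544 matched the RefSeq table. Tests used limma 3.58.1 in R 4.3.3 (lmFit, then two-sided eBayes with an intensity trend). P-values were adjusted by Benjamini-Hochberg across all probe sets, at a threshold of 0.05. The female regime fit used 8 population means and the male regime fit 8 responses. The 8 responses rest on 4 pairs of male populations. The batch fit used 16 differences within crosses, and the fit among populations all 32 arrays. Fits were tested on simulated data with added shifts that were larger, in residual SDs, than the members' regime differences. That test does not tell whether differences of the members' size would be found. Arrays have no read depth, so their number limits the precision. The labels do not say whether the 2 arrays of a cross came from separate flies beyond calling them biological replicates. Members were all described. The 2 genes of the wider list with the lowest p in each comparison, those past the threshold and the 8 genes most like the members' mean were named. The members and lists were chosen with earlier results of these data known. Alternatives were other scalings, no trend, no dim probe sets, single batches, left-out populations, a replicate block, arrays as samples, 1 regime's arrays and, chosen after seeing the data, the germline list's mean subtracted and populations left out of the tests among populations.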

Additional observations from a re-analysis of the deposited data

Results flagged for a closer look

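For each member probe set, the 8 arrays of each group and the 4 population means of each regime were examined for 1 sample far from the others, 66 sets in all. By chance about 1 in 20 is picked out, and 2 were. Among the 8 arrays of monogamous females with monogamous males, spn-E was highest at 10.17 in the batch 2 array of Mono4, and the nearest array was at 9.94. Among the 8 arrays of promiscuous females with promiscuous males, rhi was highest at 9.18 in the batch 1 array of Prom1, and the nearest array was at 8.73.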

How the results depend on the processing

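No member passed in a regime comparison under any alternative but 1. With the 32 arrays as samples, piwi and qin passed for female regime, 2 members among 142 probe sets. That fit gave all probe sets 1 correlation within populations and can understate the SE of piwi and qin. No probe set passed in it for the interaction, a count of 0. The members had 4 to 6 batch calls under all alternatives. Counts over all probe sets in the regime comparisons are so small that single probe sets move them. For the response in promiscuous females, 1 probe set passed, and 0 did with arrays centred on the median, with quantile normalization, without the dimmest 40% of probe sets, without the intensity trend, in batch 1 alone and in batch 2 alone. For the interaction, 1 passed, and 2 did with arrays centred on the median, 0 without the trend, 2 in batch 1 alone and 0 in batch 2 alone. For female regime 1 passed in batch 1 alone.

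Single batches have fewer arrays. The members' median response in promiscuous females was 0.14 in batch 1 and -0.00288 in batch 2, and their median interaction 0.15 and -0.0615. Among the monogamous populations 1146 probe sets passed in batch 1 and 964 in batch 2, against 2542, with 1 and 2 members, and the members' median range was 0.27 in batch 1. Among the promiscuous populations 624 and 643 passed, against 1849, with 1 and 0 members. Without the intensity trend 3 members passed in each regime, and with only the 16 arrays of the regime 3 passed among the monogamous populations. With the germline list's mean subtracted, chosen after seeing the data, the members' median was 0.0246 for female regime and 0.00452 for the response in promiscuous females. The cause was not tested.

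Leaving out 1 population at a time gave 0 to 1 probe sets for female regime, 0 to 2 for the male response, 0 to 10 in monogamous females, 0 to 2 in promiscuous females and 0 to 4 for the interaction. Among the monogamous populations it left 2 to 4 members called, with median ranges of 0.16 to 0.18. Among the promiscuous populations it left 1016 to 1547 probe sets and 2 to 3 members, with median ranges of 0.12 to 0.21. Members that were not called changed sign in 11 to 24 cases in each regime comparison.

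Populations share numbers 1 to 4 in the labels. Deviations of same-numbered populations correlated at 0.13, 0.07, 0.19 and 0.02 for female means and at 0.17, 0.03, -0.04 and 0.01 for responses. The highest r of each monogamous population with a promiscuous one of another number was 0.09, 0.04, -0.05 and 0.03 for female means. For responses it was 0.00367, 0.04, 0.06 and 0.07. Same-numbered populations also shared their male populations by design. The main fits did not take the numbers as pairs, and these values do not settle whether they should. With the number as a replicate block 13 probe sets passed for the male response, none of them a member, and 0 for the interaction and 0 for female regime.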
